A study of Homo sapiens with 4 samples.

Results

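The transcripts encoded by the mitochondrial genome were examined in OVCAR3 cells with and without a hairpin RNA against ANAPC1P2. Members were all genes whose symbol begins with MT-, which gave 37 of the 62696 genes in the count tables. They comprise 13 mRNAs, 2 ribosomal RNAs and 22 transfer RNAs. OVCAR3 is an established line of human high-grade serous ovarian carcinoma, grown here in RPMI medium with fetal bovine serum. Knockdown libraries (KD, n = 3, called Set 1, 2 and 3 in the labels) came from cells in which a short hairpin RNA targeted ANAPC1P2, a pseudogene relative of the anaphase-promoting complex gene ANAPC1. The wild-type group (WT) is 1 library of OVCAR3 cells, and no library with a non-targeting hairpin is labelled. An effect of carrying any hairpin and an effect of losing ANAPC1P2 therefore cannot be told apart. The labels do not say whether the 3 sets were separate cultures or separate hairpins, so the spread between them may be technical. Libraries were made from total RNA after depletion of ribosomal RNA, with fragmentation and strand marking.

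Human mitochondrial DNA is a small circle that carries no introns and hardly any bases between genes. A single RNA polymerase, POLRMT, copies each strand into a long precursor, and most mRNAs and rRNAs are released by cutting out the tRNAs that lie between them. The 13 mRNAs encode core membrane subunits of the respiratory chain: 7 of complex I (MT-ND genes), 1 of complex III (MT-CYB), 3 of complex IV (MT-CO genes) and 2 of ATP synthase, complex V (MT-ATP genes). The other subunits of these complexes are encoded in the nucleus, translated in the cytosol and imported.

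In the GENCODE 29 annotation on GRCh38, 25 of the 36 neighbouring pairs of members abut or overlap, and 5 overlap. Of the members, 28 read in the orientation of the long coding precursor and 9 in the other, namely MT-ND6 and 8 tRNAs. Some reads cannot be given to a single gene where members overlap, and the 2 longer overlaps between mRNA genes are shown here for that reason. MT-ATP6 and MT-CO3 overlap by 1 base. MT-ATP8 and MT-ATP6 share 46 bases, and MT-ND4L and MT-ND4 share 7 bases. Capitals mark the shared bases, on the plus strand of chrM:8507-8592 and chrM:10740-10786, with 20 bases on each side.
MT-ATP8 and MT-ATP6: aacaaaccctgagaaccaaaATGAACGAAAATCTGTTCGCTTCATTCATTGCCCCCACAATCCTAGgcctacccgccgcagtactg
MT-ND4L and MT-ND4: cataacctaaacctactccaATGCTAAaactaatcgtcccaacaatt

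A second source of shared sequence is the nucleus, which holds many old insertions of mitochondrial DNA. The tables list 402 nuclear pseudogene genes named after mitochondrial mRNAs or rRNAs. A block of 6 of them on chromosome 1, between positions 629062 and 634922, matches its mitochondrial parents at 98.0% to 99.4% of aligned bases. Windows of 60 bases from MT-CO1 (chrM:6207-6266) and its copy MTCO1P12 (chr1:631377-631436), and from MT-ATP6 (chrM:8642-8701) and its copy MTATP6P1 (chr1:633811-633870), show how few bases tell a read apart, all on the plus strand of GRCh38. Capitals mark the bases that differ, 3 in each pair of windows.
MT-CO1: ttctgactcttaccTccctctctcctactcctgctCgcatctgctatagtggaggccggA
MTCO1P12: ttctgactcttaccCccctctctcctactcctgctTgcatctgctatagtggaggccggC
MT-ATP6: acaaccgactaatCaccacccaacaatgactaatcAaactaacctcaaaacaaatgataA
MTATP6P1: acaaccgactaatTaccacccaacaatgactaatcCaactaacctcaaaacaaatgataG
The longest stretch without a difference between a parent and its copy in this block ranged from 108 to 266 bases, against a read length of 150 bases. The sources used here do not say how reads that match both places were counted.

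Reads assigned to genes numbered 48443589 in KD 1, 56216398 in KD 2, 42871815 in KD 3 and 27868718 in the WT library. The WT library stood apart from the KD libraries in several ways. The summed normalized count of 10 erythroid markers was 15024 in WT and 17.8 to 29.5 in KD, where HBB, HBA1, HBA2 and 3 others were at 0. The sum of 11 leukocyte markers was 1046 in WT and 110.1 to 150.7 in KD, where 4 markers were at 0. The excess in WT was not limited to blood markers. For 10 cardiac and skeletal muscle markers the sum was 229.9 in WT and 25.6 to 52.1 in KD. For 10 fibroblast markers it was 1274 in WT and 569 to 673 in KD. Sums of 14 neural markers overlapped, at 6413 in WT and 5725 to 6505 in KD. None of 12 markers of serous ovarian carcinoma, PAX8 and MUC16 among them, was at 0 in either group. Of these 12, 7 were called higher in KD and 3 lower by limma, beside 31.4% and 36.3% of all tested genes. Their sum was 559060 in WT and 110930 to 123350 in KD, opposite in direction to most of these calls. Abundant structured RNAs such as RN7SL1 took 1.57% to 1.89% of reads in KD and 0.360% in WT. ANAPC1P2 itself had 0, 11 and 8 reads in KD 1, 2 and 3 and 14 in WT, too few to measure the knockdown. The part of these differences in the values of the mitochondrial transcripts was not tested.

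The mitochondrial genome supplied a smaller share of reads in every KD library than in WT. So did most single genes, as 67.0% of the 23344 tested genes had a lower share in every KD library. A lower share is thus not particular to these transcripts. The 37 members took 0.197% of the reads of KD 1, 0.186% in KD 2 and 0.184% in KD 3, against 0.237% in WT. The KD mean of 0.189% ± 0.00697 (SD, n = 3) was 0.798 times the WT share. The lower bound of the 95% binomial interval (Wilson) was 0.235% in WT, and the highest upper bound in KD was 0.198%. Such intervals cover counting error only. An exact permutation test over libraries, two-sided, gave p = 0.25, the smallest value that 3 libraries against 1 allow. In bulk RNA, a change in which cells were present and a change in mitochondrial RNA per cell cannot be told apart.

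By RNA class, nearly all of these reads fell in mRNAs. mRNAs made up 99.8%, 99.8% and 99.6% of member reads in KD 1, 2 and 3 and 99.8% in WT. The 2 rRNAs together had 188, 141 and 248 reads in KD, against 77 in WT. The 22 tRNAs had 47, 52 and 60 in KD, against 22 in WT. The depletion kit is made to remove rRNA, so the rRNA reads are what remained after it. As shares of all counted reads, the rRNAs overlapped between the groups (exact permutation p = 0.75). The tRNA share lay above WT in every KD library, with an exact permutation p of 0.5.

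The composition of the mRNA reads differed between the groups, and this measure needs no scaling between libraries. Complex V mRNAs took 12.8%, 12.7% and 12.5% of mitochondrial mRNA reads in the 3 KD libraries and 6.45% in WT. The KD mean was 1.96 times the WT share. Complex I mRNAs took 54.4%, 54.2% and 54.5% in KD and 61.5% in WT. The complex III mRNA, MT-CYB, took 4.48%, 4.73% and 4.80% in KD and 5.74% in WT. Complex IV mRNAs took 28.3%, 28.4% and 28.2% in KD and 26.3% in WT, a difference of 1.99 percentage points. It came to 3.47 when reads of all nuclear pseudogenes named after mitochondrial mRNAs were added to their parents. Close and diverged copies were added alike, so this change does not measure reads that match both parent and copy. For each complex the 3 KD libraries lay on the same side of WT and within a narrow band, with SDs of 0.0891 to 0.180 percentage points. Each of these differences had the smallest exact permutation p the design allows, 0.25.

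Within the complexes the genes went different ways, as the plot of mRNA shares shows. In complex IV, MT-CO1, which encodes the catalytic subunit, took 9.76%, 9.74% and 9.54% of mRNA reads in KD and 15.7% in WT. MT-CO2, which encodes the subunit that receives electrons from cytochrome c, took 9.40%, 9.73% and 9.98% in KD and 5.87% in WT. MT-CO3, a further core subunit, took 9.18%, 8.90% and 8.68% in KD and 4.78% in WT. The difference in the share of complex IV thus combines a lower share of 1 gene and higher shares of the other 2. In complex I, MT-ND4 took 23.9% in WT and 19.3% to 19.5% in KD, and MT-ND5 took 13.9% in WT and 10.0% to 10.7% in KD. The share of MT-ND2 was 7.70% in WT and 9.62% to 10.0% in KD. MT-ND1 was the only mRNA whose groups overlapped, with 8.49%, 9.38% and 8.58% in KD and 9.04% in WT.

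**Figure D1:**
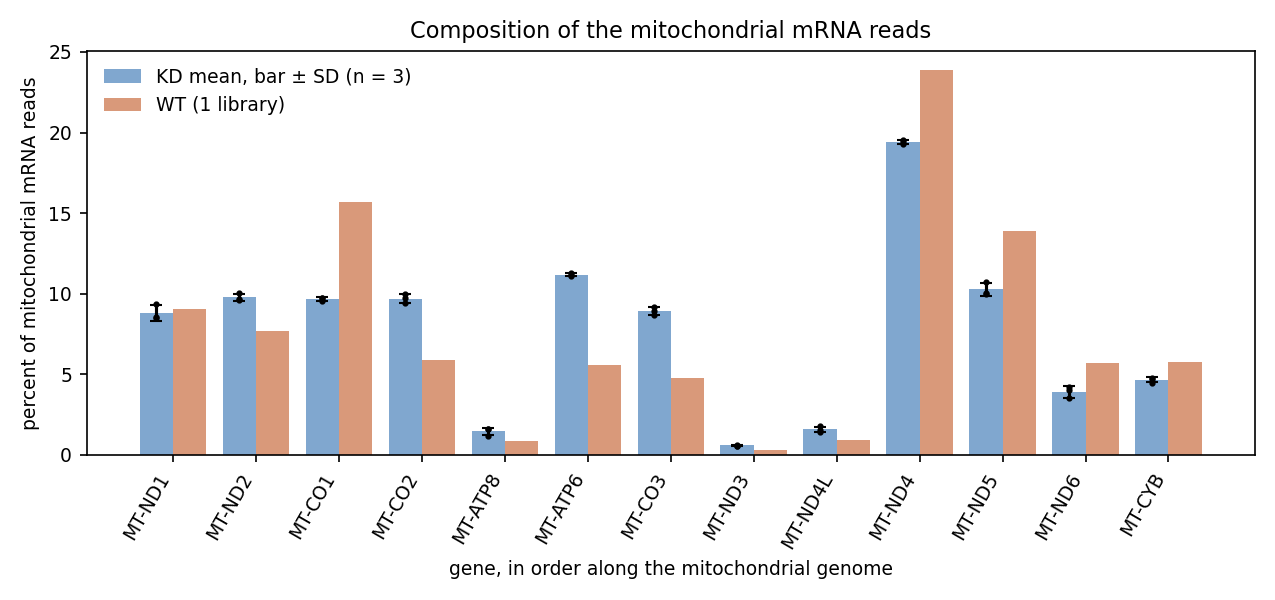
Percent of mitochondrial mRNA reads taken by each of the 13 mRNAs, in order along the genome; blue bars are KD means with SD (n = 3) and points for each library, and orange bars are the single WT library. MT-CO1, MT-ND4 and MT-ND5 are lower in KD, and the run from MT-CO2 to MT-CO3 is higher.

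Apart from MT-ND2, genes with a higher share in KD lay side by side. The 6 mRNAs from MT-CO2 to MT-ND4L, which follow each other on the genome, took 33.7%, 33.5% and 33.2% of mRNA reads in KD and 18.4% in WT. This run was chosen after its values were seen. On either side of it, MT-CO1 and MT-ND4 had lower shares in KD. Ratios within the same library show the step at each end of the run. The ratio of MT-CO2 to MT-CO1, genes separated by those of 2 tRNAs, was 0.963, 0.999 and 1.05 in KD and 0.375 in WT, a log2 difference of 1.42. MT-ATP6, further inside the run, had a ratio to MT-CO1 of 1.14, 1.14 and 1.18 in KD and 0.355 in WT. On the other side of the run, the ratio of MT-ND4L to MT-ND4, which are translated from a shared mRNA, was 0.0906, 0.0810 and 0.0733 in KD and 0.0401 in WT. MT-ATP8 and MT-ATP6 also share an mRNA, and their ratio was 0.144, 0.143 and 0.106 in KD and 0.160 in WT, below WT in all 3 KD libraries, with an exact permutation p of 0.5. The ratio of MT-ND6, which is read from the other strand, to its neighbour MT-ND5 was 0.400, 0.350 and 0.393 in KD and 0.410 in WT, with an exact permutation p of 0.5.

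The single genes were then compared on the deposited scale of normalized read counts, with limma on log2(normalized count + 1). All 13 mRNAs and both rRNAs passed the filter of a mean of at least 10 normalized counts, as did 2 of 22 tRNAs. Of the 13 mRNAs, 7 were higher in KD, 1 was lower and 5 were not called at an adjusted p of 0.05. Among all 23344 tested genes, 67.7% were called, 31.4% higher and 36.3% lower, so most genes of this comparison were called. The median log2 difference was 0.58 over the mRNAs and -0.28 over all tested genes. Over 14451 nuclear protein-coding genes, a closer background for mRNAs, it was 0.28, with 6628 called higher and 3571 lower. With 1 WT library, the spread comes from the KD libraries alone and WT is assumed to vary like them.

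Complex V had both of its mRNAs called higher. MT-ATP6, which encodes the proton-channel subunit a, had 10072, 9021 and 9872 normalized counts in KD 1, 2 and 3 and 4076 in WT. Every KD library lay above 2 times the WT value. Its log2 difference was 1.24 ± 0.11 (SE; limma adjusted p = 0.000168). MT-ATP8, which encodes a small subunit of the same complex, had 1453, 1293 and 1047 in KD and 652 in WT. KD 3 was the lowest of the 3 and still above WT, and the log2 difference was 0.94 ± 0.18 (limma adjusted p = 0.00479). Since these genes share bases and an mRNA, they are not independent measurements.

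Complex IV was split. MT-CO1 had 8818, 7897 and 8358 normalized counts in KD and 11481 in WT, with all KD libraries below WT. It was called lower, with a log2 difference of -0.46 ± 0.11 (limma adjusted p = 0.00996). MT-CO2 had 8490, 7887 and 8744 in KD and 4302 in WT, a log2 difference of 0.96 ± 0.11 (limma adjusted p = 0.000409). MT-CO3 had 8288, 7216 and 7602 in KD and 3504 in WT, a log2 difference of 1.13 ± 0.11 (limma adjusted p = 0.000274). For both, all 3 KD libraries lay well above WT.

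Complex I had 3 of its 7 mRNAs called higher and none lower. MT-ND2 had 9054, 7800 and 8484 normalized counts in KD and 5645 in WT, a log2 difference of 0.58 ± 0.12 (limma adjusted p = 0.00535). MT-ND3 was the least abundant mRNA, with 527, 470 and 545 in KD and 222 in WT, a log2 difference of 1.20 ± 0.15 (limma adjusted p = 0.000768). MT-ND4L had 1599, 1277 and 1237 in KD and 702 in WT, a log2 difference of 0.96 ± 0.16 (limma adjusted p = 0.00276). These proteins sit in the membrane arm of complex I, as do the products of the other 4 MT-ND mRNAs.

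The other 4 complex I mRNAs and MT-CYB were not called. MT-ND1 had 7669, 7605 and 7511 normalized counts in KD and 6628 in WT, and did not pass the test although all KD libraries lay above WT (log2 difference 0.20 ± 0.09, limma adjusted p = 0.103). MT-ND4, with the highest count of all members, had 17642, 15755 and 16890 in KD and 17502 in WT, and the groups overlapped. MT-ND5, whose product is among the largest of the proton-pumping subunits, had 9044, 8154 and 9397 in KD and 10183 in WT (log2 difference -0.20 ± 0.12, limma adjusted p = 0.165). MT-ND6 had 3617, 2854 and 3692 in KD and 4178 in WT (log2 difference -0.31 ± 0.16, limma adjusted p = 0.124). MT-CYB, cytochrome b of complex III, had 4045, 3830 and 4205 in KD and 4208 in WT. Its log2 difference was -0.06 ± 0.10 (limma adjusted p = 0.580).

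**Figure D2:**
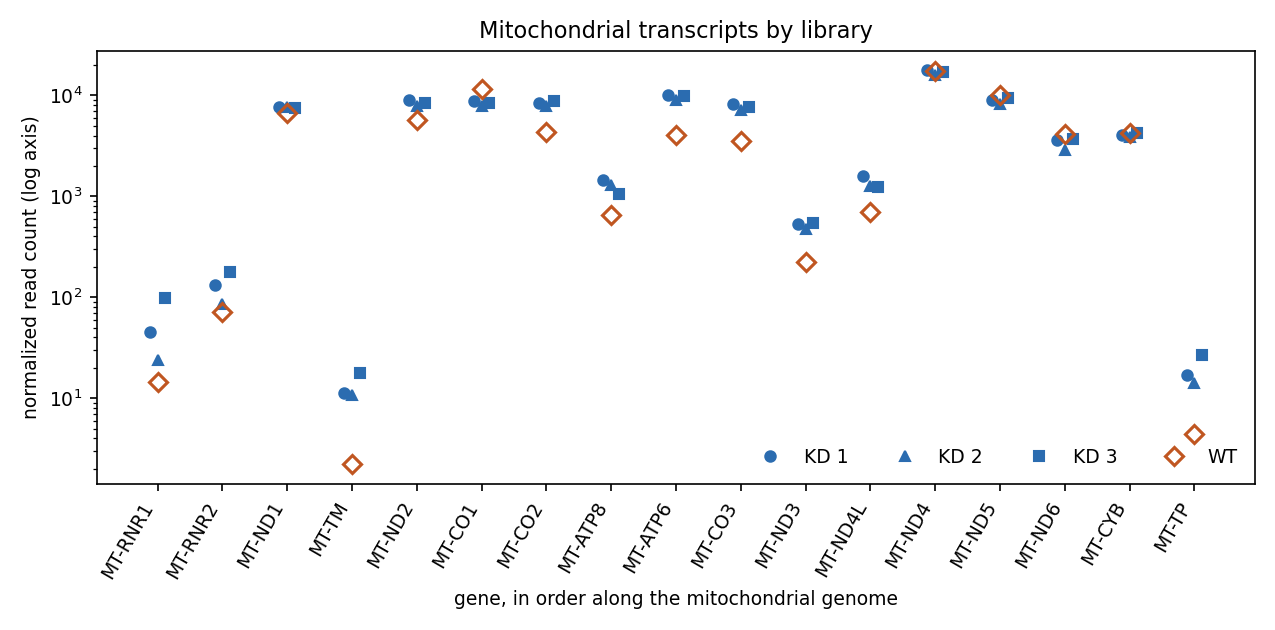
Normalized read counts (log axis) of the 15 mRNAs and rRNAs and the 2 tested tRNAs in each of the 4 libraries, in genome order; filled symbols are KD 1, 2 and 3 and open diamonds are WT. From MT-CO2 to MT-ND4L every KD library lies above WT, while MT-CO1 lies below it and MT-ND4 overlaps.

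Which genes were called depended on how libraries were scaled to each other. In RPM, where the counted reads of each library are scaled to the same total, MT-CO1 had 192, 181 and 175 in KD and 371 in WT, and MT-CYB had 88.1, 87.7 and 88.2 in KD and 136 in WT. MT-ATP6 had 219, 207 and 207 in KD and 132 in WT. With these equal totals the median of all genes moved by -0.56 on the log2 scale, and limma called 73.9% of genes, 20.3% higher and 53.6% lower. Of the 13 mRNAs, 4 were then higher (MT-CO2, MT-ATP6, MT-CO3 and MT-ND3) and 6 lower (MT-ND1, MT-CO1, MT-ND4, MT-ND5, MT-ND6 and MT-CYB). The median of the mRNAs was 0.02, against -0.84 for all genes and -0.28 for nuclear protein-coding genes. MT-ATP6 kept a log2 difference of 0.68 ± 0.07 (limma adjusted p = 0.000767), and that of MT-CO1 was -1.02 ± 0.08 (limma adjusted p = 0.000299). MT-ND2, MT-ATP8 and MT-ND4L lost their call (limma adjusted p = 0.875, 0.149 and 0.0784). Scaling by TMM, by the upper quartile or by the median of ratios moved the median of all genes up by 0.23, 0.21 and 0.28. Under these, MT-CO1 was no longer called (limma adjusted p = 0.0605, 0.0818 and 0.185). MT-ND1, lower with equal totals, was called higher under the same 3 scalings, with log2 differences of 0.43, 0.41 and 0.48 (limma adjusted p = 0.00449, 0.00752 and 0.00473).

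**Figure D3:**
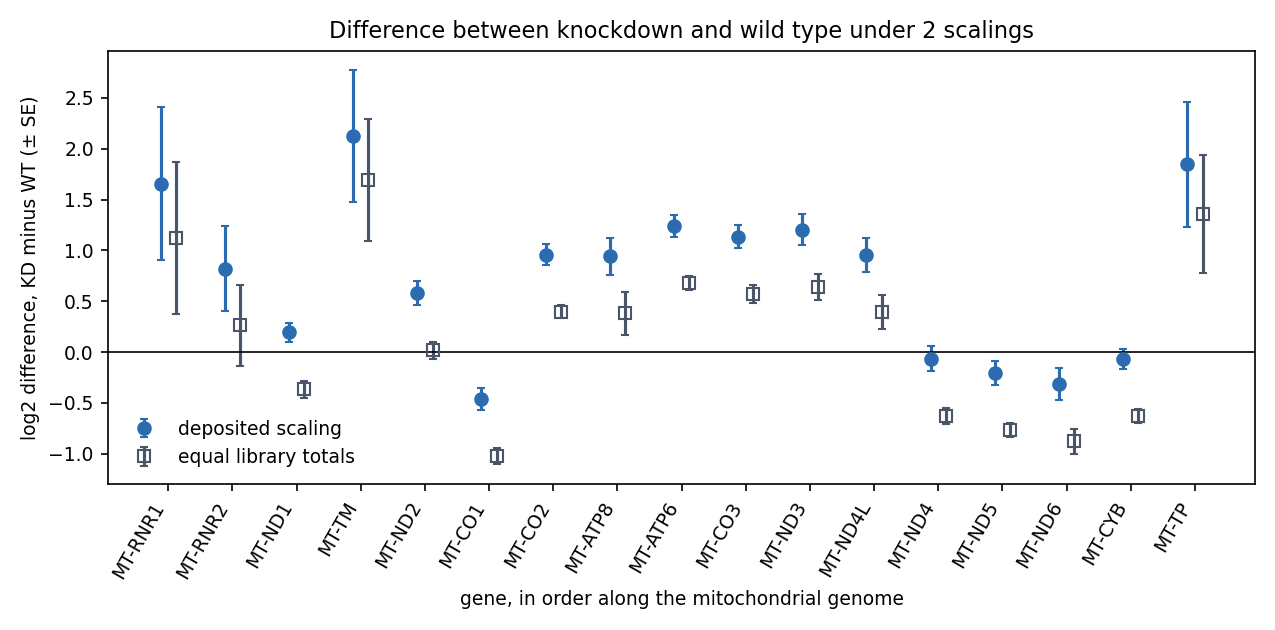
Log2 difference between KD and WT, with SE from limma, for the 17 tested members in genome order; filled circles use the deposited scaling and open squares equal library totals. The 2 series run in parallel, offset by about the same amount, so that MT-ATP6 lies above 0 and MT-CO1 below 0 in both while MT-CYB lies near 0 only in the deposited scaling.

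MT-CO2, MT-ATP6, MT-CO3 and MT-ND3 were called higher under every scaling, filter, tool and left-out library that was run. The order of the mRNAs relative to each other does not depend on scaling. Without a filter on low values, MT-ND1 was called higher (limma adjusted p = 0.0313), and MT-ATP8 and MT-ND4L also lost their call (limma adjusted p = 0.0818 and 0.0597). Leaving out any KD library changed no mRNA call on the deposited scale. DESeq2 on the recovered reads called 59.9% of all tested genes, 29.6% higher and 30.3% lower, and changed no mRNA call. edgeR's quasi-likelihood test called 71.4%, 31.7% higher and 39.7% lower. It kept the calls of all 8 mRNAs and added MT-ND6 as lower (adjusted p = 0.0381).

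Counts of sides show the same dependence. On the deposited scale, all 3 KD libraries lay above WT for 8 mRNAs and below it for 4, and 1 overlapped. Among all tested genes, 40.0% lay above and 52.2% lay below. As a share of reads, 6 mRNAs lay above and 6 below, and MT-ND2 overlapped, against 26.9% of tested genes above and 67.0% below.

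Levels were compared between genes per kilobase of gene. In KD the order began with MT-ATP6 at 14178 ± 820 normalized counts per kilobase (SD, n = 3), then MT-CO2 at 12242 ± 644, MT-ND4 at 12164 ± 689 and MT-CO3 at 9824 ± 692. MT-CO2 and MT-ND4 overlapped between libraries, and the other neighbours among these did not. The middle of the order held MT-ND2, MT-ND1, MT-ND6, MT-ATP8, MT-CO1, MT-ND5 and MT-ND4L, from 8105 to 4616, where all neighbours overlapped except MT-ND1 and MT-ND6. MT-CYB at 3529 and MT-ND3 at 1485 were the lowest. In WT the order began with MT-ND4 at 12701, MT-ND6 at 7959 and MT-CO1 at 7446, and MT-ATP6 stood in place 6 with 5986. MT-ND3 was lowest in WT too, at 642. The order of WT rests on 1 library, so its neighbours have no measured spread. Across the 13 mRNAs, Pearson's r of log2 reads was 0.995 to 0.998 between KD libraries and 0.942 to 0.950 between a KD library and WT, as a description over genes that share each library.

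Apart from MT-ND6, shorter mRNA genes tended to have the higher log2 differences. The mRNA genes run from 207 bases (MT-ATP8) to 1812 bases (MT-ND5). Pearson's r between the log2 difference and log2 length was -0.65 over the 13 mRNAs (Spearman's rho -0.59), and -0.77 without MT-ND6, the only mRNA read from the other strand (rho -0.79). These points share their 4 libraries, and some of them share bases or, as above, an mRNA, so length here is that of the gene. MT-ATP8 and MT-ND4L, at 207 and 297 bases, had 0.94 and 0.96, below MT-ATP6 at 681 bases with 1.24. MT-ND6, at 525 bases, lay apart from mRNAs of like length. Nuclear protein-coding genes showed a weaker relation in the same libraries, with r of -0.16 over 14451 genes (rho -0.20). Their median log2 difference was 2.34 in the 33 genes under 500 bases, 0.60 from 500 to 1000 bases, 0.87 from 1000 to 2000 bases and -0.07 at 8000 bases or more. The part of length in the mitochondrial differences was not tested.

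**Figure D4:**
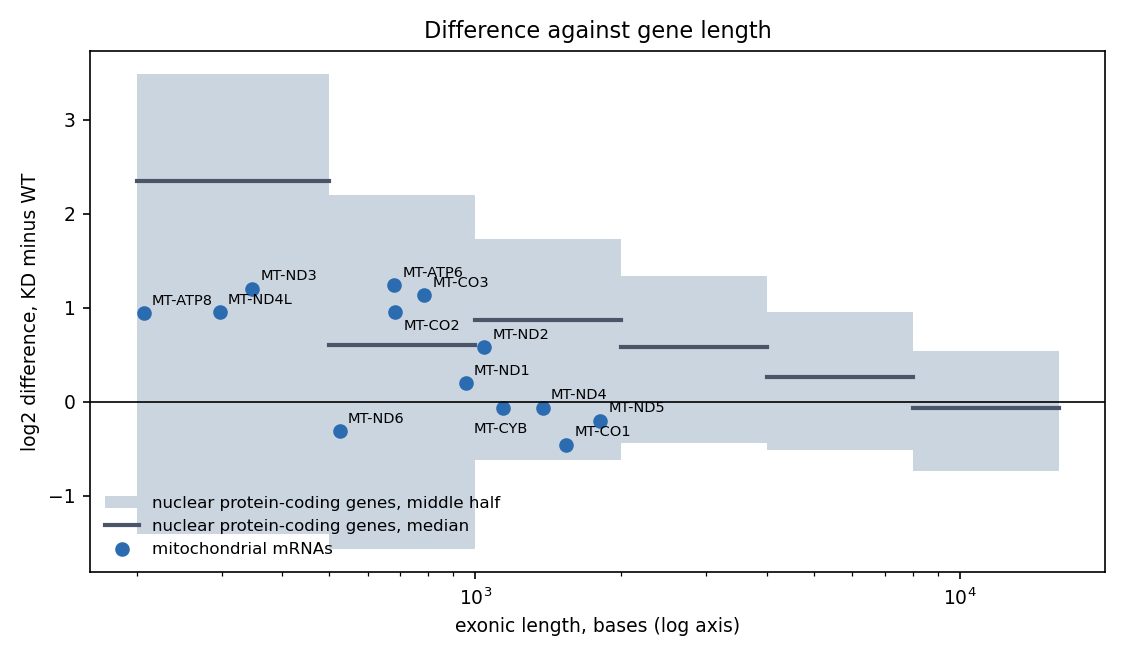
Log2 difference between KD and WT against exonic length (log axis) for the 13 mitochondrial mRNAs (points) and for nuclear protein-coding genes in length bins (line, median; grey, interquartile range; the outermost bins are open-ended). The 6 mRNAs from MT-CO2 to MT-ND4L lie between 0.94 and 1.24, and MT-ND6 lies apart from them at -0.31.

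The rRNAs had few reads and a wide spread. MT-RNR1, the 12S rRNA of the small ribosomal subunit, had 48, 31 and 88 reads in KD 1, 2 and 3, against 13 in WT, or 45.5, 24.1 and 97.8 normalized counts against 14.4. All KD libraries lay above WT, and KD 3 was the highest and KD 2 the lowest. MT-RNR2, the 16S rRNA of the large subunit, had 140, 110 and 160 reads in KD, against 64 in WT, or 133, 85.5 and 178 normalized counts against 71.1. Neither passed the test, with log2 differences of 1.66 ± 0.75 and 0.82 ± 0.42 (limma adjusted p = 0.0893 and 0.121). Both passed when KD 2, the lowest library, was left out (limma adjusted p = 0.0405 and 0.0374) and with edgeR (adjusted p = 0.0107 and 0.0299), so the calls of the rRNAs rest on the setting. With equal totals MT-RNR2 stood at 0.26 on the log2 scale. The ratio of MT-RNR2 to MT-RNR1 reads was 2.92, 3.55 and 1.82 in KD and 4.92 in WT.

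Of the 22 tRNAs, 6 had no read in any library (MT-TI, MT-TQ, MT-TN, MT-TK, MT-TG and MT-TL2). A count of 0 allows up to 3 reads in a library. A further 8 had 1 to 3 reads in all 4 libraries together, and 8 had 4 or more. Mature mitochondrial tRNAs are shorter than the 150-base reads. MT-TM and MT-TP, the tRNAs for methionine and proline, held 108 of the 181 tRNA reads and were the only tRNAs to pass the filter, which each passed only through its KD libraries. They lie on opposite strands and far apart on the circle, MT-TM at chrM:4402-4469 between MT-TQ and MT-ND2, and MT-TP at chrM:15956-16023 next to the control region. Their sequences are given 5′ to 3′ as transcribed, with the anticodon in capitals, because they held most of the tRNA reads.
MT-TM: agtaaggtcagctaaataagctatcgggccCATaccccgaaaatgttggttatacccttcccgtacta
MT-TP: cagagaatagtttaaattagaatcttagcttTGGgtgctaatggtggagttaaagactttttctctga

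MT-TM had 12, 14 and 16 reads in KD and 2 in WT, and MT-TP 18, 18 and 24 in KD and 4 in WT. All KD libraries lay above WT for both. Since each entered the test only through the group where it was high, the limma calls of both as higher are not read as results. Neither was called by edgeR (adjusted p = 0.0610 for both) or DESeq2 (adjusted p = 0.163 and 0.150). Among the other 20, no library had more than 11 reads. MT-TY had 7, 3 and 5 reads in KD and 5 in WT, MT-TF 0, 2 and 11 in KD and 5 in WT, and MT-TC 1, 7 and 1 in KD and 0 in WT. MT-TL1 had 2, 1 and 1 in KD and 1 in WT, MT-TH 1, 0 and 1 in KD and 2 in WT, and MT-TS2 2, 2 and 0 in KD and 0 in WT. No difference was detectable in these at this depth.

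The nuclear-encoded subunits of the same complexes give the partner side of each complex. Of 75 listed subunits, 66 were higher in KD and 3 lower, with a median log2 difference of 1.60. The background over 14451 nuclear protein-coding genes was 6628 higher and 3571 lower, with a median of 0.28. By complex, 28 of 37 subunits of complex I were higher (median 1.36), 9 of 9 of complex III (1.62), 11 of 11 of complex IV (2.04) and 18 of 18 of complex V (1.98). The mitochondrial mRNAs of the same complexes had medians of 0.20, -0.06, 0.96 and 1.09 on this scale. Each nuclear median exceeded the mitochondrial one, a comparison within libraries that was not tested. With equal totals 59 of the 75 were higher and 7 lower, with a median of 1.04. The background was then 4310 higher and 6405 lower of 14451, with a median of -0.28.

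**Figure D5:**
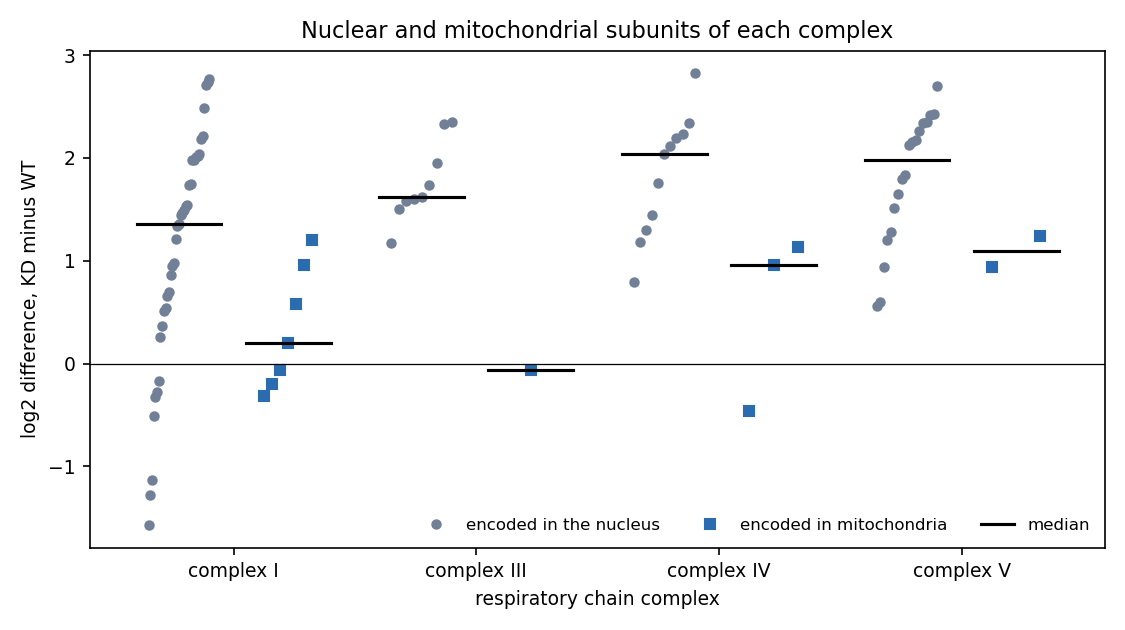
Log2 difference between KD and WT, on the deposited scale, for nuclear-encoded (circles) and mitochondrially encoded (squares) subunits of respiratory complexes I, III, IV and V; short lines are medians. Nuclear medians lie between 1.36 and 2.04, and mitochondrial medians between -0.06 and 1.09.

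NDUFA4, a small complex IV subunit, had 8570, 6953 and 8381 normalized counts in KD and 1121 in WT, the largest log2 difference of the complex IV list at 2.82 ± 0.14 (limma adjusted p = 6.57e-05). COX5A and COX7A2 of the same complex had log2 differences of 2.23 and 2.34. In complex I, the accessory subunits NDUFB3, NDUFS5 and NDUFA6 had 2.77, 2.74 and 2.71. NDUFV2, NDUFA11 and NDUFA10 were the 3 lower subunits, with -1.57, -1.28 and -0.33. In complex III, UQCRB, UQCRH and UQCR10 had 2.35, 2.33 and 1.95, and in complex V, ATP5ME and ATP5F1C had 2.43 and 2.42. ATP5MK, a small subunit of complex V, had 3182, 2689 and 3114 normalized counts in KD and 459 in WT. All the subunits named as higher were also called higher with equal totals.

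The nuclear genes that make, process and use mitochondrial RNA were taken as 6 lists, with 86 of 87 genes tested. Of the tested genes, 58 were higher in KD and 6 lower, with a median log2 difference of 0.58. Against them stand the 6628 higher and 3571 lower of 14451 nuclear protein-coding genes. With equal totals 35 of the 86 were higher and 25 lower, with a median of 0.02, beside 4310 higher and 6405 lower of the same background, so the balance of the lists as a whole rests on the scaling. In the transcription list 6 of 10 were higher and none lower, and with equal totals 4 were higher and 3 lower. TFAM, which packages mitochondrial DNA and opens its promoters, had 6199, 5512 and 6079 normalized counts in KD and 1280 in WT (log2 difference 2.21 ± 0.11, limma adjusted p = 6.57e-05). TFB2M, the initiation factor, and MTERF3, a regulator of transcription, had log2 differences of 2.06 and 1.53. POLRMT, the polymerase, had 2395, 2341 and 2483 in KD and 1756 in WT (0.45 ± 0.10, limma adjusted p = 0.00634), and with equal totals its log2 difference was -0.11 (limma adjusted p = 0.217).

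All 11 genes of the RNA stability and decay list were higher, with a median of 1.14. With equal totals 8 were higher and none lower. LRPPRC and SLIRP form a complex that binds mitochondrial mRNAs and keeps them stable. LRPPRC had 21584, 19828 and 21527 normalized counts in KD and 9493 in WT (log2 difference 1.14 ± 0.12, limma adjusted p = 0.000295). SLIRP had 2700, 2320 and 2657 in KD and 653 in WT (1.97 ± 0.12, limma adjusted p = 7.09e-05). FASTKD3, which acts on mitochondrial mRNAs, and REXO2, an exonuclease of short RNA fragments, had log2 differences of 1.35 and 1.28. These 4 genes were also called higher with equal totals.

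In the RNA processing list 6 of 10 were higher and 1, PTCD2, lower, and with equal totals 4 were higher and 4 lower. TRMT10C and HSD17B10, subunits of the mitochondrial RNase P that cuts tRNA 5′ ends, had log2 differences of 1.83 and 1.60, and MTPAP, the poly(A) polymerase, 1.23. The replication list had 5 of 10 higher, a share near that of the background, and 2 lower. The 6 of 10 higher in the transcription and in the processing list lay little above the background share. With equal totals 5 replication genes were higher and 5 lower. SSBP1, the single-stranded DNA-binding protein, had a log2 difference of 2.46, and MGME1, a nuclease, 1.16. POLG2, the accessory subunit of the DNA polymerase, was lower at -1.50, with 1344, 1362 and 1180 normalized counts in KD and 3666 in WT. TOP3A was the other lower gene at -0.31. Of the 24 genes that modify mitochondrial tRNAs and rRNAs, 14 were higher and none lower (median 0.37, beside 0.28 for the background). YRDC (1.47), TRUB2 (0.99) and TRMT5 (0.98) led the list. With equal totals 3 of its genes were higher and 8 lower. The list of aminoacyl-tRNA synthetases, which charge tRNAs with amino acids, also holds GATB, GATC and QRSL1, subunits of the amidotransferase that completes glutaminyl-tRNA. Of its 21 tested genes 16 were higher, these 3 included, and 3 were lower (LARS2, SARS2 and RARS2), and with equal totals 11 were higher and 5 lower. KARS1 (1.95), WARS2 (1.59) and IARS2 (1.57) had the largest differences.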

How the data were processed

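RNA-seq of OVCAR3 cells gave 1 table per library, for 3 KD libraries and 1 WT library. The submitters' processing notes name the build hg38 and the tools STAR 2.7.11b, featureCounts 2.0.6 and DESeq2. The sources used here do not say which annotation release was counted, with what strand setting, or what was done with multi-mapping reads. The authors deposited signal values that are read counts after normalization. All were whole reads divided by 1 factor per library (1.0551, 1.2869 and 0.8995 for KD, 0.9003 for WT, tolerance 0.001), so the reads were recovered.

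Differences were tested with limma 3.58.1 (trend, two-sided, R 4.3.3) on log2(normalized count + 1), after genes whose mean was below 10 normalized counts were removed, with Benjamini-Hochberg adjustment over 23344 genes. Differences on this scale understate the change of low genes. Alternatives were pseudocounts of 0.5 and 5, other filters, scaling by TMM, upper quartile or median of ratios, equal totals (also outside the mitochondrial genome), edgeR 4.0.16, DESeq2 1.42.0, KD reads thinned to the depth of WT, added nuclear pseudogene reads, and leaving out each KD library. Scripts were tested on simulated data. Gene positions and sequences came from GENCODE 29 on GRCh38, where 92.9% of identifiers were found. Overlaps and windows were computed from them. Named genes are all mRNAs and rRNAs, the 8 tRNAs with the highest mean, and of each nuclear list up to 3 called genes with the largest difference and a mean of at least 100 normalized counts, with POLRMT, TFAM, LRPPRC and SLIRP always. Lower genes of the lists outside this rule were named after their values were seen. Members and lists were chosen with earlier results of these data known.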

Additional observations from a re-analysis of the deposited data

How the results depend on the processing

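Members called higher, 9 on the deposited scale with MT-TM and MT-TP, which passed the filter only through KD, came to 5 with equal totals, 5 with equal totals outside the mitochondrial genome and 5 with edgeR and equal totals, and to between 8 and 11 when a KD library was left out (4 to 6 with equal totals). Members called lower were 1 on the deposited scale and 6 in all these equal-totals settings. They came to 3 with no filter, 2 with a mean of at least 50 and 2 with edgeR. Scaling by TMM, upper quartile or median of ratios gave 0. Of the 3 with no filter, only MT-CO1 passed the main filter. The others were tRNAs with at most 11 reads in any library and are not read as results. Over all genes, 4746 and 4742 were higher under the 2 equal-totals settings against 7329, and 5086 lower with a mean of at least 50 against 8465, where fewer genes were tested. The machinery lists had 35 higher under either equal-totals setting against 58, and 25 lower against 6, with 3, 3 and 2 lower under those 3 scalings. Nuclear subunits called lower went from 3 to 7 with equal totals of either kind. MT-ND1 reversed to -0.37 under both equal-totals settings and to -0.36 with edgeR and equal totals. With equal totals and a library left out it stood at -0.40 to -0.33. On the deposited scale, leaving out a library kept it at 0.19 to 0.20. MT-ND2 reversed to -0.033 with equal totals without KD 1. Scaled by TMM, the upper quartile or the median of ratios, MT-ND4 reversed to 0.17, 0.15 and 0.22, MT-ND5 to 0.029, 0.013 and 0.077, and MT-CYB to 0.17, 0.15 and 0.21, each by the shift of the scaling. Adding nuclear pseudogene reads moved KD minus WT shares to -0.0606 percentage points for all members and -0.0608 for mRNAs. By complex they came to -7.49 for complex I, -1.50 for complex III, 3.47 for complex IV and 5.53 for complex V. No sign changed. Close and diverged copies were added alike, so these shifts do not measure reads that match both parent and copy. In WT, 393 of the 564 reads added to MT-CYB came from MTCYBP32, which matched it at 71.4% of aligned bases. Of the values of single members under alternatives, 247 kept their direction and call, 36 gained a call, 38 lost it and 16 reversed. The settings of equal totals with edgeR or with a library left out were chosen after seeing the data. No paired analysis was possible because the single WT library has no set number. Depth limits the rRNAs and tRNAs, and the single WT library limits every comparison.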

Other observations

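Nuclear genes named after mitochondrial mRNAs or rRNAs followed different courses, and a relation to how closely they match their parent was not tested. Of the 402, 33 had at least 100 reads over the 4 libraries. Among these, limma called 8 higher in KD and 20 lower, beside 31.4% and 36.3% of all tested genes. Some of the lower ones reached 100 reads only through WT, where they were high. MTND5P2, for example, had 6, 10 and 12 reads in KD and 86 in WT. The count of lower calls is therefore not read as a result. In the chromosome 1 block, MTND2P28, MTCO2P12, MTCO3P12 and MTCO1P12 were called higher, the last of these not with equal totals (limma adjusted p = 0.257), and MTATP6P1 and MTND1P23 were not called. MTND2P28, with 98.4% of its bases identical to MT-ND2, had 1009, 991 and 839 reads in KD and 163 in WT, which was 10.5% of the parent's reads in KD (mean of 3) and 3.21% in WT. A window of MT-ND2 (chrM:4899-4958) and of this copy (chr1:630069-630128), where 4 bases in capitals differ, is printed because its share moved most among the copies of this block.
MT-ND2: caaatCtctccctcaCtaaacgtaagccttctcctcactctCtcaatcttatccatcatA
MTND2P28: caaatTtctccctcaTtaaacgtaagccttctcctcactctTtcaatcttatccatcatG
MTCO1P12 had 12.1% of the reads of MT-CO1 in KD and 5.18% in WT, although MT-CO1 itself was lower in KD. MTCO2P12 had 9.66% and 4.13%, and MTCO3P12 8.14% and 3.04%. MTATP6P1 went the other way, with 4.25% of the reads of MT-ATP6 in KD and 7.19% in WT. The part of reads that match both a parent and a copy was not tested.

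Several diverged copies were called lower in KD by limma. On chromosome X, MTND2P2 had 51, 81 and 21 reads in KD and 503 in WT (log2 difference -3.72). It matched MT-ND2 at 72.5% of 167 aligned bases, which cover 15.7% of the parent's length. MTND5P26 in the same stretch had 54, 65 and 11 reads in KD and 437 in WT, MTCYBP32 43, 44 and 19 against 393, and MTATP6P19 37, 44 and 25 against 317. For each of these 4, all KD libraries lay below WT by a wide margin. They lie close together, between chrX:102786813 and chrX:102807824, and may not be separate cases. The named copies were chosen after their values were seen.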
